A study of Homo sapiens with 12 samples.

Results

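The 10 alpha- and beta-tubulin genes described here are TUBA1A, TUBA1B, TUBA1C and TUBA4A (4 alpha) and TUBB, TUBB2A, TUBB2B, TUBB3, TUBB4B and TUBB6 (6 beta). They were taken by gene name from a table of 58735 genes, and all 10 were among the 17729 genes with enough reads to be tested. The list was drawn up with results of these data known, and it was selected on the difference between cells treated with the clickable electrophilic purine and cells without it. Every value for that difference is therefore a description with no p-value, and counts of genes past the threshold of the fit over all genes are listed without being read as evidence. The list was not selected on the isotypes' levels, the 4-thiouridine comparisons or the interaction of both treatments. These use the same libraries, however, so they are not independent of the choice. The comparison of 4-thiouridine with solvent, for example, shares its solvent libraries with that difference. How isotype proportions differ between libraries with and without the purine follows from the differences selected on, and is likewise a description.

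RNA-seq of polyadenylated RNA was measured in HEK293T, a human embryonic kidney line that carries the SV40 large T antigen, in 12 libraries. The 4 groups of 3 libraries were the solvent DMSO, CEP (AHL-Pu-1, an alkyne-bearing chloropurine that reacts with cysteines, 25 µM for 1 h), 4SU (4-thiouridine, a nucleoside that cells build into new RNA, 100 µM for 16 h) and CEP+4SU. All 12 carry the same protocol text, which includes UV light at 312 nm, and whether cells without 4SU were irradiated is not stated. The libraries are replicates of 1 cell line, so p-values measure the spread between these cultures only. A further label gives the CEP concentration in millimolar, and the micromolar value of the design text is used here.

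Alpha- and beta-tubulin form the heterodimer from which microtubules are built. Each is encoded by several genes, the isotypes, whose proteins are close in sequence and whose messages are made in tissue-dependent proportions. Tubulin mRNA is also subject to autoregulation. When free heterodimer accumulates, the factor TTC5 recognises the N-terminal tetrapeptide of tubulin as it leaves the ribosome, and the CCR4-NOT deadenylase then shortens the message's life.

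The coding starts are printed because they encode the peptide that this pathway recognises. Each line holds the first 30 coding bases of the GENCODE 29 transcript used (GRCh38), and the capitals mark the 12 bases that encode the tetrapeptide. The gamma-tubulin gene TUBG1, which lies outside the list, is added for contrast.
TUBB: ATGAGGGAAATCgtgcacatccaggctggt
TUBB4B: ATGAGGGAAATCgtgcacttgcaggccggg
TUBB3: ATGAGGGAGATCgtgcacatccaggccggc
TUBB6: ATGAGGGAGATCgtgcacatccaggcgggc
TUBB2A: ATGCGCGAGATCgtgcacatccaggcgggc
TUBB2B: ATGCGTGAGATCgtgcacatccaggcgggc
TUBA1A: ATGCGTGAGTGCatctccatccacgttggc
TUBA1B: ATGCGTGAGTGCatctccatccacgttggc
TUBA1C: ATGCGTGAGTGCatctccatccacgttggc
TUBA4A: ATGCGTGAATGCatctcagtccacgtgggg
TUBG1: ATGCCGAGGGAAatcatcaccctacagttg

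TUBB and TUBB4B shared the same capital bases, as did TUBB3 and TUBB6. This is likeness of bases only, and no difference between isotypes in autoregulation is read from it. All 30 bases were the same in TUBA1A, TUBA1B and TUBA1C. The beta starts lie in a single exon: TUBB at chr6:30720507-30720536 and TUBB4B at chr9:137241361-137241390 on the plus strand, and TUBB2A at chr6:3157434-3157463 on the minus strand. In the alpha genes the 30 bases run across an exon junction. TUBA1B, for example, spans chr12:49129696-49131300 on the minus strand from the junction's far side to the start codon.

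TUBA1A, TUBA1B and TUBA1C lie close together on chromosome 12 (chr12:49184796-49189324, chr12:49127782-49131397 and chr12:49188736-49274603), and the gene models of TUBA1A and TUBA1C overlap on opposite strands. TUBA4A is on chromosome 2. TUBB, TUBB2A and TUBB2B are on chromosome 6, TUBB3 on 16, TUBB4B on 9 and TUBB6 on 18. Coding sequences were 97.2% identical between TUBA1A and TUBA1B, 98.1% between TUBB2A and TUBB2B and 84.4% between TUBB and TUBB4B.

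This likeness limits how far reads can be assigned. Of all windows of 150 bases in the transcripts used, none in TUBB4B or TUBB6 occurred in a transcript of another gene. In TUBB 453 of 2521 windows did. The share that did was 12.6% in TUBA1A, 23.7% in TUBA4A, 23.9% in TUBA1C, 39.4% in TUBB2B, 49.4% in TUBB2A, 64.2% in TUBA1B and 88.7% in TUBB3. TUBA4A shared its windows with the overlapping gene STK16 on the other strand, and TUBB with the pseudogene TUBBP1 and an antisense gene. Whether the counting used strand is not stated, so the split between such neighbours is uncertain. For TUBB3, a read-through gene on the same strand (AC092143.1, at 0 to 1 count in each library) overlaps the gene, and 95.4% of its coding windows occur there or in TUBB2A or TUBB2B. The 0 to 20 counts recorded for TUBB3 cannot be taken as its full level.

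The libraries held 16569114 to 24644734 counts. All 8 HEK293T markers had enough reads to be tested. They ran from PAX2 at 0.83 to 1.46 FPKM (fragment counts scaled by gene length and library size, as deposited) to vimentin at 40.5 to 50.3. Of 9 markers of other cell types, 3 were tested: COL1A1 at 2.89 to 4.22 FPKM, PMEL at 1.15 to 2.73 and MLANA at 0.04 to 0.30. COL1A1 thus lay above PAX2, and PMEL overlapped it. CD3E, TYR and HBB were at 0 in every library. None of the tested markers was called in any comparison. The libraries with CEP differed in range from those without in 4 properties, and the ranges overlapped in each. The slope of log2 expression on GC content was −0.01 to 0.12 per 10 percentage points without CEP and −0.22 to 0.04 with it, and the slope on gene length was −0.03 to −0.02 per doubling without CEP and −0.02 to 0.07 with it. Mitochondrial genes took 1.27 to 1.65% of counts without CEP and 0.967 to 1.40% with it. Fewest genes were detected in CEP replicate 2 and CEP+4SU replicate 2, 22230 and 22627 against 24376 to 25869 in the other libraries.

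By deposited FPKM, TUBB was the most abundant of the isotypes, and 3 genes made up most of the tubulin message. Levels of different genes are compared only as FPKM, which is per length. The length is that of the gene in the table, 3574 bases in TUBA1B and 2111 in TUBB4B. The transcripts used for these 2 genes were close in length, with 1478 and 1488 windows of 150 bases. Levels per transcript length were not computed, and they could order the genes otherwise. In DMSO, TUBB stood at 437 ± 23.4 FPKM (mean ± SD, n = 3), TUBB4B at 312 ± 20.9 and TUBA1B at 225 ± 20.5. TUBA1C followed at 66.1 ± 6.08 and TUBA1A at 37.1 ± 3.20. TUBB2A at 25.4 ± 2.99, TUBB6 at 23.3 ± 1.58 and TUBB2B at 19.9 ± 2.81 lay close together. TUBA4A was at 3.37 ± 0.66, and TUBB3 was lowest at 0.15 ± 0.04. TUBB, TUBB4B and TUBA1B together held 84.6 to 84.8% of the summed FPKM of the 10 genes in the DMSO libraries and 82.2 to 84.8% over all 12.

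**Figure D1:**
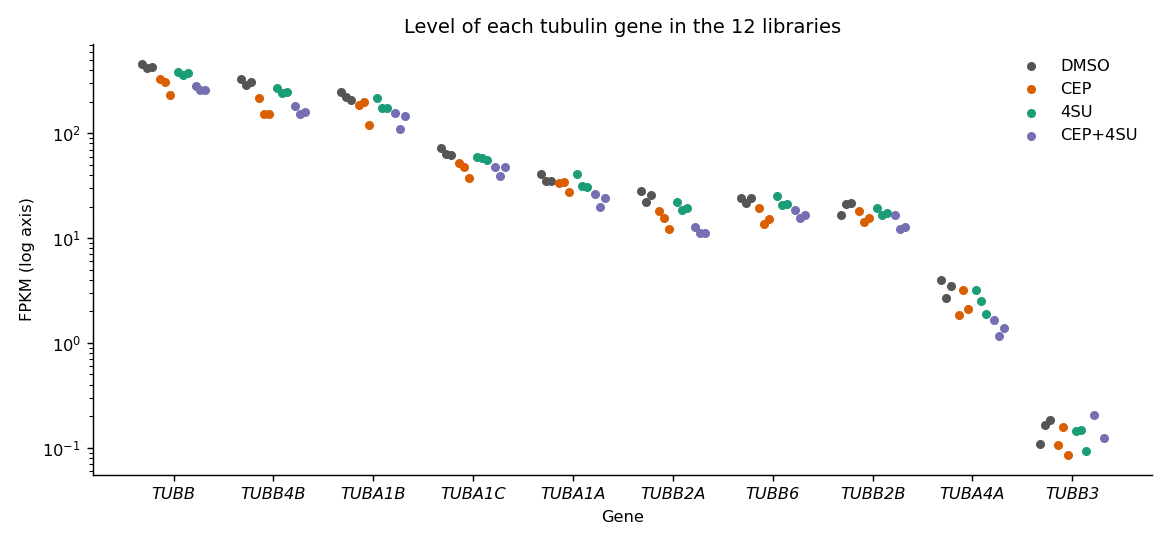
Deposited FPKM (log axis) of each tubulin gene in each library, coloured by group. TUBB lies highest in every library and TUBB3 lowest, and 1 TUBB3 value, 0 in CEP+4SU replicate 2, cannot be drawn on this axis.

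The order of the isotypes held for most neighbours in all 12 libraries. TUBB exceeded TUBB4B in 12 of 12, TUBA1B exceeded TUBA1C in 12 of 12 and TUBA1C exceeded TUBA1A in 12 of 12. TUBA4A was below each of the other 8 genes apart from TUBB3 in all 12. TUBB4B exceeded TUBA1B in 11 of 12 libraries, and the exception was CEP replicate 2, where TUBA1B stood at 198.6 FPKM and TUBB4B at 153.1. In the CEP group that pair therefore did not differ beyond its spread. Its order in any group also depends on the gene lengths in FPKM. It depends on read assignment too, since 64.2% of the windows in TUBA1B were shared and none in TUBB4B. Neither was tested. TUBB6 exceeded TUBB2A in 8 of 12 libraries and TUBB2A exceeded TUBB2B in 7 of 12. In DMSO the order was TUBB2A, TUBB6, TUBB2B in all 3 libraries, in 4SU TUBB6, TUBB2A, TUBB2B, and in CEP+4SU TUBB6, TUBB2B, TUBB2A. In CEP neighbours among these 3 genes changed places in 1 of 3 libraries, so they did not differ beyond their spread.

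By deposited FPKM, the message of the 6 beta genes exceeded that of the 4 alpha genes in every library. The size of the ratio depends on the gene lengths in FPKM and on how shared reads were assigned, which was not tested. TUBB4A, at 16.2 FPKM in DMSO, is outside the list and these sums. The 6 beta genes summed to 817 ± 45.8 FPKM in DMSO and the 4 alpha genes to 331.3 ± 30.04, a ratio of 2.47 ± 0.15. The ratio was 2.44 ± 0.18 in 4SU, 2.32 ± 0.29 in CEP+4SU and 2.08 ± 0.27 in CEP, where it ranged from 1.78 to 2.29. All 3 DMSO libraries, at 2.37 to 2.65, lay above the CEP libraries, and the CEP+4SU libraries, at 2.10 to 2.64, overlapped all the other groups.

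**Figure D2:**
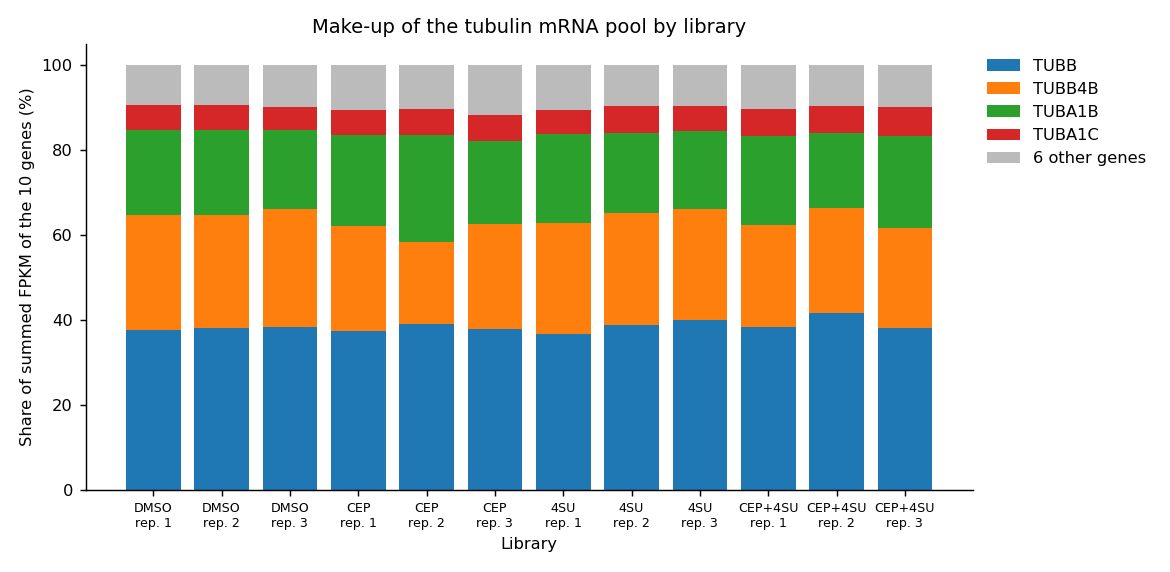
Share of each isotype in the summed FPKM of the 10 genes (%), 1 bar per library, with the 6 least abundant genes drawn together. TUBB holds 36.7 to 41.6% throughout, and TUBB4B is smallest and TUBA1B largest in CEP replicate 2.

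Within this pool the share of TUBB was similar in the 4 groups, and that of TUBB4B was smaller in the CEP libraries. TUBB made up 38.0 ± 0.37% in DMSO, 38.1 ± 0.80% in CEP, 38.5 ± 1.64% in 4SU and 39.31 ± 1.997% in CEP+4SU (SD, n = 3). TUBB4B made up 27.1 ± 0.63% in DMSO and 26.2 ± 0.15% in 4SU, against 23.0 ± 3.08% in CEP and 24.2 ± 0.50% in CEP+4SU. Its 6 values with CEP, 19.4 to 24.8%, lay below its 6 values without, 26.0 to 27.8%. The wide SD in CEP came from replicate 2, at 19.4%. The shares are not corrected for GC content, in which TUBB4B (59.5%) and TUBB (52.6%) differ. The averaged CEP differences of the 2 genes, −0.73 and −0.53 on the log2 scale, came closer with the GC trend removed, at −0.58 and −0.48.

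Pairs of isotypes compared inside a library showed the same. The log2 ratio of TUBB4B to TUBB was −0.52 to −0.46 in DMSO, −0.61 to −0.50 in 4SU, −1.01 to −0.60 in CEP and −0.76 to −0.66 in CEP+4SU. The lowest value was again that of CEP replicate 2, and 1 library with CEP overlapped the range without it. TUBB2A and TUBB2B, neighbours on chromosome 6, changed order. Their log2 ratio was above 0 in all 6 libraries without CEP (0.06 to 0.75), while with CEP it ran from −0.35 to 0.12 and, with 4SU added, from −0.37 to −0.14. Since nearly as many windows are shared as not in TUBB2A, how reads were divided between these 2 genes bears on that ratio and was not tested.

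TUBA1A took 3.14 to 3.32% of the pool in DMSO, 3.26 to 3.87% in 4SU and 3.17 to 3.56% in CEP+4SU. In CEP alone it took 3.85 to 4.47%, above all DMSO and CEP+4SU libraries. TUBB6 made up 1.96 to 2.14% in DMSO and 2.47 to 2.52% in CEP+4SU.

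With CEP all 10 tubulin genes had lower fitted levels than without it. Their median log2 difference, averaged over the presence of 4SU, was −0.45, and the median over all 17729 genes was −0.01. In these bulk libraries less tubulin mRNA per cell and fewer cells with a high tubulin level cannot be told apart. In this contrast 5 of the 10 were called lower, TUBB4B, TUBB, TUBB2A, TUBA1C and TUBB6, where 0.175% of all genes were. These calls are given as a description, because the list was selected on this difference. In CPM (counts scaled to library size with TMM factors) the same 5 genes had all 6 libraries with CEP below all 6 without, a pattern that 0.513% of all genes showed.

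**Figure D3:**
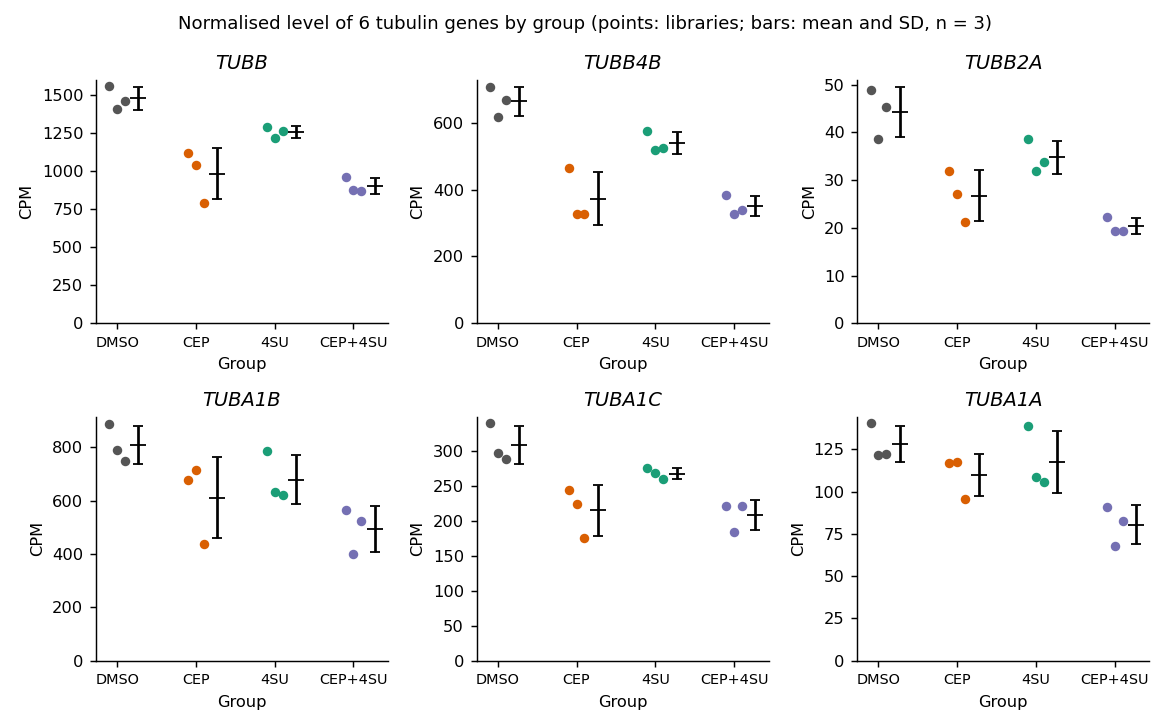
TMM-scaled CPM of 6 tubulin genes in each library by group, with group mean and SD (n = 3). For TUBB, TUBB4B, TUBB2A and TUBA1C the 6 libraries with CEP lie below the 6 without, and for TUBA1B and TUBA1A the groups overlap.

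TUBB4B, a beta isotype found in most tissues, had the largest difference in CEP against DMSO. Its CPM was 706, 618 and 667 in DMSO, 464, 326 and 327 in CEP, 576, 518 and 523 in 4SU, and 383, 326 and 340 in CEP+4SU. The 2 groups with CEP did not overlap the 2 without, and CEP replicate 1 was the highest of the libraries with CEP. The fitted log2 difference was −0.83 ± 0.11 (SE) for CEP against DMSO and −0.62 ± 0.11 for CEP+4SU against 4SU.

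TUBB, the most abundant beta isotype here, stood at 1564, 1412 and 1462 CPM in DMSO and at 1118, 1042 and 794 in CEP. It stood at 1293, 1219 and 1268 in 4SU and at 965, 877 and 871 in CEP+4SU. Again no library with CEP reached those without it, and CEP replicate 3 was lowest. The log2 differences were −0.59 ± 0.09 without 4SU and −0.48 ± 0.09 with it.

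TUBB2A, a beta isotype prominent in brain, had the largest difference when the CEP contrast was averaged over 4SU, −0.75 ± 0.10. Its CPM was 48.9, 38.7 and 45.2 in DMSO, 31.9, 27.1 and 21.2 in CEP, 38.6, 32.0 and 33.8 in 4SU, and 22.4, 19.4 and 19.4 in CEP+4SU. The gap between groups was narrow, since the highest CEP library stood at 31.9 and the lowest 4SU library at 32.0. TUBB2B, nearly identical in coding sequence, had −0.33 ± 0.09, and its groups overlapped (31.8 to 40.8 CPM in CEP and 36.9 to 48.5 in DMSO).

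TUBB6, a divergent beta isotype, stood at 88.9 to 101 CPM in DMSO, 56.6 to 80.5 in CEP, 85.0 to 105 in 4SU and 65.0 to 77.0 in CEP+4SU. Its CEP difference averaged over 4SU was −0.47 ± 0.08. TUBB3, the neuronal beta isotype, had 0 to 20 counts in a library, and its difference of −0.31 ± 0.51 says nothing of its direction.

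The alpha genes had smaller averaged differences than TUBB4B and TUBB2A, and TUBA4A had the largest of them. TUBA1B, the main alpha isotype of this line, stood at 889, 791 and 750 CPM in DMSO, 679, 717 and 436 in CEP, 786, 632 and 619 in 4SU, and 565, 399 and 523 in CEP+4SU. It was below DMSO in every CEP library, but CEP replicates 1 and 2 lay above 4SU replicates 2 and 3, and its averaged difference was −0.43 ± 0.11. TUBA1C had no such overlap: 289 to 340 CPM in DMSO and 260 to 276 in 4SU, against 175 to 245 in CEP and 184 to 221 in CEP+4SU. Its averaged difference was −0.44 ± 0.07.

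TUBA1A, an alpha isotype prominent in developing neurons, had its lowest levels with both agents. It stood at 141, 122 and 122 CPM in DMSO and 117, 117 and 95.4 in CEP, a log2 difference of −0.22 ± 0.12. With 4SU it stood at 139, 108 and 106, and with both agents at 90.7, 68.1 and 82.8, a difference of −0.55 ± 0.12. TUBA4A was at 16.3, 10.99 and 14.3 CPM in DMSO and 7.61, 13.2 and 8.59 in CEP, which overlap. It was at 13.0, 10.2 and 7.72 in 4SU and 6.77, 4.74 and 5.68 in CEP+4SU, which do not. Its averaged difference was −0.68 ± 0.16.

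**Figure D4:**
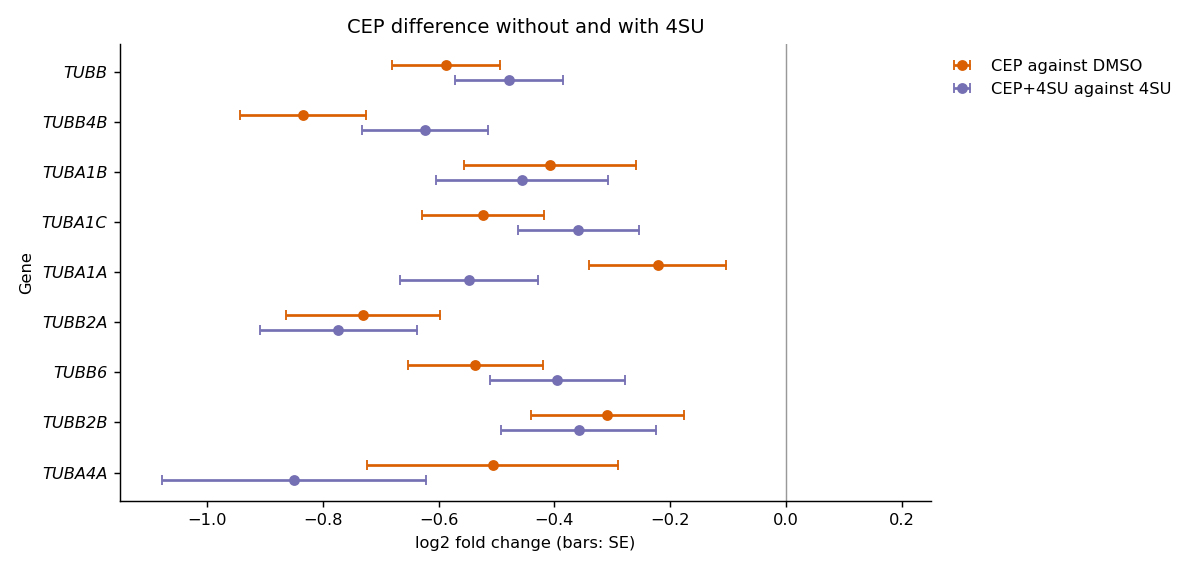
Fitted log2 fold change with SE for CEP against DMSO and for CEP+4SU against 4SU, for 9 tubulin genes. All points lie below 0, and TUBB3 (−0.40 ± 0.71 and −0.23 ± 0.73) is left out for its low counts.

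By single comparison, 3 of the 10 were called lower in CEP against DMSO (TUBB4B, TUBB and TUBB2A), where 0.0395% of all genes were. In CEP+4SU against 4SU, 2 were (TUBB4B and TUBB2A), against 0.0338% of all genes. In CEP+4SU against DMSO, 8 were, all but TUBB3 and TUBB6, against 0.993% of all genes. The first and the last of these share the DMSO libraries. Nothing is read from these counts, which moved with single libraries. The averaged count of 5 was 3 without DMSO replicate 1 and 9 without CEP replicate 1 or CEP+4SU replicate 1. The 3 calls against DMSO became 1 without any single DMSO library and 5 without CEP replicate 1, and the 2 calls against 4SU became 0 when any single DMSO, 4SU or CEP+4SU library was left out. The 8 calls became 3 or 4 without any single DMSO library and 3 without CEP+4SU replicate 2 or 3.

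The GC content of the transcripts was above the median of tested genes in all 10 (51.6 to 61.2%), and libraries with CEP had the lower GC slopes. With the GC trend taken out of each library the averaged CEP differences were smaller: −0.58 ± 0.05 for TUBB4B, −0.60 ± 0.08 for TUBB2A, −0.48 ± 0.06 for TUBB and −0.41 ± 0.06 for TUBA1C. TUBB6 went from −0.47 to −0.28 ± 0.05, TUBB2B to −0.22 ± 0.07 and TUBB3 to −0.15 ± 0.49. All 10 stayed below 0, with a median of −0.38. Without both CEP libraries of replicate 2, where fewest genes were detected, the median was −0.43. The part of mitochondrial reads in the differences was not tested.

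With 4SU no tubulin gene passed an adjusted p of 0.05 in edgeR, and 3 did in DESeq2. The averaged 4SU effect was below 0 for 9 of the 10 genes, with a median log2 fold change of −0.19 against 0.00 for all genes. By edgeR's quasi-likelihood test with Benjamini-Hochberg adjustment, 0 of 10 were called lower where 0.384% of all genes were. At an unadjusted p under 0.05, 6 of 10 were lower (TUBA1A, TUBA1B, TUBA4A, TUBB, TUBB2A and TUBB4B), where 6.95% of all genes were. The 3 genes that DESeq2 called lower were TUBA1A, TUBA4A and TUBB2A, where it called 230 of 12946 genes lower. The same 3 passed in edgeR when the GC trend was removed, where 403 of 17729 genes were called lower. These 3 and TUBA1B passed without the low-count filter, for which the count over all genes is not given.

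TUBA4A had the largest 4SU estimate, −0.60 ± 0.16 (adjusted p = 0.092, edgeR). It was −0.43 ± 0.22 against DMSO, where 4SU (7.72 to 13.0 CPM) and DMSO (10.99 to 16.3) overlapped, and −0.77 ± 0.23 in the presence of CEP, where CEP+4SU (4.74 to 6.77) lay below CEP (7.61 to 13.2). TUBB2A had −0.37 ± 0.09 (adjusted p = 0.0849, edgeR) and similar estimates in both settings, −0.35 ± 0.13 and −0.39 ± 0.14. TUBA1A had −0.29 ± 0.08 (adjusted p = 0.129, edgeR), with −0.12 ± 0.12 against DMSO and −0.45 ± 0.12 in the presence of CEP.

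For TUBB and TUBB4B the averaged estimates were −0.18 ± 0.07 and −0.20 ± 0.08 (adjusted p = 0.251 and 0.282, edgeR). That of TUBB4B was −0.10 without CEP replicate 1. For TUBB, TUBB4B, TUBA1C and TUBB2A all 3 libraries with 4SU alone lay below all 3 DMSO libraries, while CEP+4SU and CEP overlapped. The share of all genes with this pattern is not given, so nothing is read from it. TUBA1B had −0.28 ± 0.10 (adjusted p = 0.258), TUBB2B −0.19 ± 0.09 (0.401) and TUBA1C −0.12 ± 0.07 (0.516). The estimate of TUBA1C was −0.07 without CEP replicate 1, −0.08 without CEP+4SU replicate 2 and −0.19 without CEP replicate 3, and that of TUBA1B was −0.14 without both CEP libraries of replicate 2. TUBB6 was the exception, at 0.01 ± 0.08 (adjusted p = 0.983), and its sign turned when single libraries were left out. TUBB3 had −0.19 ± 0.51. In none of the 10 did all 6 libraries with 4SU lie below all 6 without, which 0.863% of all genes showed.

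**Figure D5:**
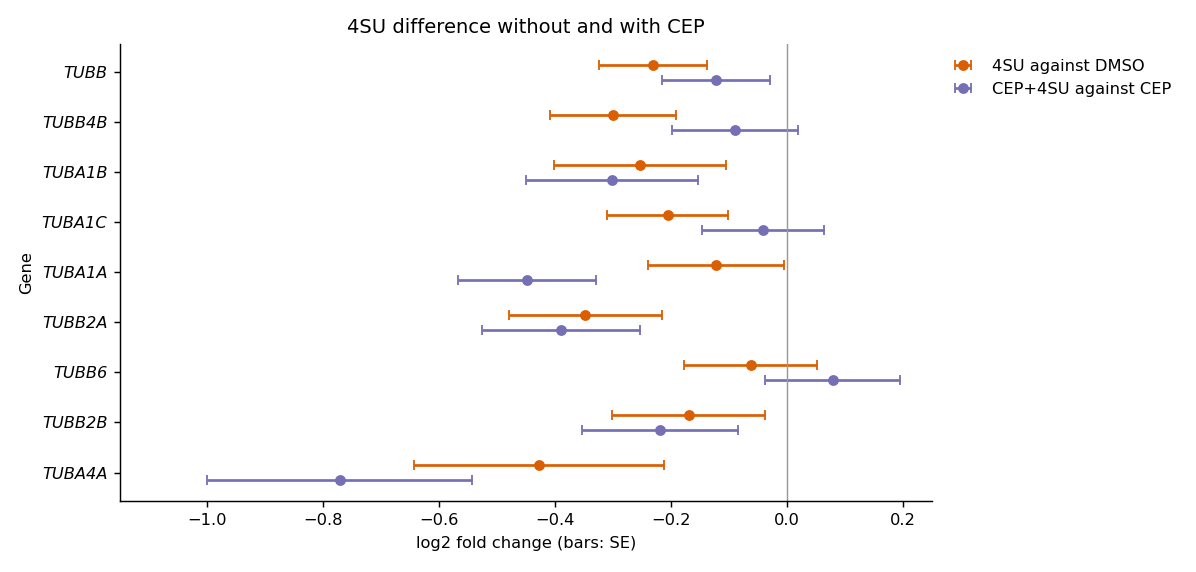
Fitted log2 fold change with SE for 4SU against DMSO and for CEP+4SU against CEP, for 9 tubulin genes (TUBB3 is left out for its low counts). Most points lie below 0 and closer to it than the CEP differences, and TUBA4A and TUBA1A lie lowest in the presence of CEP.

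The single comparisons gave no call among the 10. In 4SU against DMSO, 0 of 10 were called lower and 0.00564% of all genes, and 3 of 10 at an unadjusted p under 0.05 (TUBB, TUBB2A and TUBB4B) against 3.72%. In CEP+4SU against CEP, 0 of 10 were called and 0.00564% of all genes, and 3 of 10 at an unadjusted p under 0.05 (TUBA1A, TUBA4A and TUBB2A) against 4.83%. DESeq2 called 0 of 10 in either. Without CEP replicate 3 the averaged count went from 0 to 2, TUBB and TUBB2A.

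No interaction of CEP with 4SU was detected in any tubulin gene. The count was 0 of 10, as it was 0% of all genes, by edgeR's quasi-likelihood test, and DESeq2 called 0 of 10. At an unadjusted p under 0.05 there were also 0 of 10, against 2.63% of all genes. TUBA1A came nearest, with an interaction of −0.33 ± 0.17 on the log2 scale and an adjusted p of 0.9998. TUBA4A had −0.34 ± 0.31 and TUBB4B 0.21 ± 0.15. With SEs of 0.13 to 0.31 outside TUBB3, interactions of a size like the CEP differences themselves could be missed.

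The other genes of the pathway were listed by role. Among the 8 other alpha- and beta-tubulins 4 were tested, and edgeR called none in the averaged CEP or 4SU contrast. TUBB4A, a beta isotype of neurons and glia, stood at 51.0 to 65.3 CPM in DMSO and 28.6 to 49.0 in CEP. Its averaged CEP difference was −0.42 ± 0.11 (adjusted p = 0.0662, edgeR), and −0.23 with the GC trend removed. DESeq2 called it in this contrast (−0.43), and edgeR did so without the low-count filter (−0.43), CEP replicate 1 (−0.51) or CEP+4SU replicate 1 (−0.48). In CEP+4SU against DMSO edgeR called it lower, at −0.70 ± 0.16 (adjusted p = 0.0355). Its averaged 4SU difference was −0.27 ± 0.11 (adjusted p = 0.29), which of the alternatives run passed only without the low-count filter. TUBB1, TUBA8 and TUBA3D had 2 to 27 counts in a library and log2 CEP differences of 0.35 ± 0.37, −0.07 ± 0.47 and −0.31 ± 0.47. Their 4SU differences were 0.12 ± 0.37, −0.04 ± 0.47 and 0.69 ± 0.47.

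In the averaged CEP contrast none of the other lists held a called gene, in a contrast that called 49 of all genes. The 12 genes of autoregulation and CCR4-NOT had a median log2 difference of 0.08, and the 4 gamma-, delta- and epsilon-tubulins 0.06. The 9 genes of the gamma-tubulin complex, which nucleates microtubules, had 0.05. The 21 tubulin folding genes (22 gene identifiers), which include the CCT chaperonin and the tubulin cofactors, had 0.04. The 21 microtubule-associated proteins had 0.09, the 17 tested tubulin-modifying enzymes −0.02 and the 7 actin and intermediate filament genes 0.00. Single genes ranged from −0.19 to 0.19 in the autoregulation list, from −0.18 to 0.25 among the gamma-, delta- and epsilon-tubulins and from −0.34 to 0.18 in the gamma-tubulin complex. The range was −0.28 to 0.28 in the folding list, −0.38 to 0.24 in the microtubule-associated proteins, −0.23 to 0.12 in the modifying enzymes and −0.18 to 0.07 in the actin and intermediate filament list. TUBG1 had −0.18 ± 0.06 (adjusted p = 0.107), and TUBGCP6 of the gamma-tubulin complex −0.34 ± 0.08 (adjusted p = 0.0576, edgeR). In CEP+4SU against DMSO edgeR called TUBGCP6 lower, at −0.48 ± 0.11 (adjusted p = 0.0404). It also called TBCD of the folding list, at −0.43 ± 0.08 (0.0262), and ACTG1 of the actin list, at −0.37 ± 0.09 (0.0449). In that comparison 0.993% of all genes were called lower.

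In the averaged 4SU contrast 2 genes of these lists were called, both lower. ACTG1, cytoplasmic gamma-actin, was at 3637 to 4101 CPM in DMSO and 2784 to 3152 in 4SU, and its log2 fold change was −0.36 ± 0.06 (adjusted p = 0.0151, edgeR). TBCD, a cofactor in folding and taking apart the tubulin heterodimer, was at 152 to 164 CPM in DMSO and 118 to 122 in 4SU, with −0.33 ± 0.06 (adjusted p = 0.0151). In both, the call was lost without DMSO replicate 1, 4SU replicate 2 or 4SU replicate 3, with log2 values of −0.33, −0.34 and −0.35 in ACTG1 and −0.32, −0.32 and −0.33 in TBCD. TBCD also lost it without DMSO replicate 2, at −0.33. Of the 24 alternatives run, the call held in 19 for ACTG1 and in 18 for TBCD, so it was also lost in settings not listed here.

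Summed over the 10 genes, tubulin took 0.342 to 0.375% of counts in DMSO, 0.298 to 0.335% in 4SU, 0.193 to 0.270% in CEP and 0.199 to 0.240% in CEP+4SU. CEP replicate 3 was the lowest of all 12, and the libraries with CEP did not overlap those without.

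Outside the family, the 5 genes whose log2 CPM followed the summed tubulin CPM most closely over the 12 libraries were taken from 14881 genes with at least 1 CPM on average. They were GEMIN4 (r = 0.97), DDX28 (0.96), C15orf39 (0.94), CCDC71 (0.94) and ZNHIT2 (0.93). The sum is of genes selected on the CEP difference, so these r values are a description of genes that share it. All 5 had averaged CEP differences below 0, from −0.21 in GEMIN4 to −0.58 in ZNHIT2. GEMIN4 is a component of the SMN complex and DDX28 a mitochondrial RNA helicase. DDX28 stood at 32.1 to 42.0 CPM without CEP and 23.2 to 31.1 with it, which do not overlap, a pattern in 0.513% of all genes. GEMIN4 stood at 140 to 162 and 116 to 146, which overlap. TUBB itself had r = 0.99 with the sum of which it is the largest part, TUBB2A 0.98 and TUBA4A 0.79.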

How the data were processed

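The authors aligned reads to GRCh38 with HISAT2 2.0.5 and counted them per gene with featureCounts 1.5.0-p3, per the labels' processing notes and the study's methods. Deposited gene counts were used for tests and the authors' deposited FPKM for levels between genes. The deposited table of group means was not used. Strand use in counting is not given in the sources used here. Members, gene lists and rules were chosen with earlier results of these data known.

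Genes passing filterByExpr (minimum count 10) were fitted over all 12 libraries in edgeR 4.0.16 (TMM, quasi-likelihood F test, Benjamini-Hochberg threshold 0.05, R 4.3.3), with SE derived from the fold change and F. Averaged contrasts weigh both settings of the other agent equally. Named genes were all 10 members, tested isotypes outside the list, at most 4 called genes of a list, and the 5 with the highest r. Transcripts and windows came from GENCODE 29. In counts simulated with the same spread for all genes and no GC trend, edgeR called most of the largest changes put in. This does not measure how often smaller differences in the real libraries would be missed. Alternatives were DESeq2 1.42.0, limma 3.58.1 on log2(FPKM + pseudocount), other scalings and filters, GC and length trends removed, a replicate block and left-out libraries.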

Additional observations from a re-analysis of the deposited data

How the results depend on the processing

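The median log2 fold change of the 10 genes moved by less than 1 SD between replicates under all alternatives run, from −0.55 to −0.38 for CEP averaged and from −0.30 to −0.15 for 4SU averaged. Counts of called genes moved more, and the cause was not tested. Calls over all genes moved as well. For CEP averaged, 31 of 17729 genes were called lower in the main fit and 584 of 9610 in DESeq2. For CEP against DMSO these were 7 of 17729 and 133 of 9610. For 4SU averaged they were 68 of 17729, 230 of 12946 in DESeq2 and 403 of 17729 with the GC trend removed. For CEP+4SU against CEP, 1 of 17729 was lower, and 128 with the GC trend removed. Counts over all genes are not given for the other alternatives. For CEP against DMSO the count of 3 was 5 with DESeq2, 6 without the low-count filter, 0 with limma on FPKM at either pseudocount, 1 with only the groups compared, and 1 to 5 leaving out libraries. For CEP+4SU against 4SU the count of 2 was 4 with DESeq2, 8 without the filter, 0 with limma at either pseudocount, 1 with robust dispersion, 4 with the GC trend and 1 with the length trend removed, and 0 to 3 leaving out libraries. For CEP averaged the count of 5 was 8 with DESeq2, 9 without the filter, 0 and 2 with limma at pseudocounts of 1 and 0.1, 8 without both CEP libraries of replicate 2, and 3 to 9 leaving out libraries. For CEP+4SU against DMSO the count of 8 was 0 and 1 with limma and 3 to 9 leaving out libraries. For 4SU averaged the count of 0 was 3 with DESeq2, 4 without the filter, 3 with the GC trend removed and 0 to 2 leaving out libraries. For 4SU against DMSO it was 1 with only the groups compared, and for CEP+4SU against CEP 2 without the filter and 1 with the GC trend removed. With the replicate number as a replicate block the counts were 6, 4, 9 and 3 for CEP against DMSO, CEP+4SU against 4SU, CEP averaged and 4SU averaged. Same-numbered libraries correlated at −0.05 to 0.14, above 0.1 in 1 of 18 pairs. Because these correlations were small, the numbers were not taken to pair cultures. Yet 8 of 12 libraries were closest to their own number, so a weak pairing is not excluded. The share of TUBB in the pool, 38.0% in DMSO, was 36.7 to 41.6% over the 12 libraries. For 4SU averaged, TUBB3 turned to 0.25 without both CEP libraries of replicate 2 and ranged from −0.58 to 0.11 leaving out single libraries, positive without CEP+4SU replicate 2. TUBB6 turned to −0.01 without both CEP libraries of replicate 2 and ranged from −0.038 to 0.087 leaving out single libraries. Depth limits TUBB3, TUBB1, TUBA8 and TUBA3D, whose SEs exceeded most differences reported.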
